A study of Mus musculus with 9 samples.

Results

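Nfu1 and 7 other genes of mitochondrial iron-sulfur cluster assembly (Nfs1, Iscu, Hscb, Glrx5, Isca1, Isca2 and Bola3) were followed in mouse hippocampus, 8 of the 16429 genes that carried a tested probe set with a single gene symbol. Nfu1 was chosen by a measured value, the higher score of one of its probe sets with green soybean extract than with the control diet, and the other 7 genes were taken as its pathway. They lay on 11 probe sets, all of which had a score on every array. Nfu1, Iscu and Isca1 had 2 probe sets each and the other 5 genes had 1 each.

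Iron-sulfur clusters are small inorganic cofactors that carry electrons or shape active sites in respiratory complexes, DNA repair enzymes and radical enzymes. In mitochondria a desulfurase takes sulfur from cysteine, the cluster is built with iron on a scaffold protein, a chaperone pair releases it, and carrier proteins hand it on to the recipients. NFU1 acts late in this route, and in humans its loss impairs lipoyl synthase, so that pyruvate and 2-oxoglutarate dehydrogenases lack their lipoyl cofactor, and lowers some respiratory complexes. Neurons depend on these enzymes for oxidative metabolism.

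The study fed male SAMP10/TaSlc mice, an inbred senescence-accelerated strain, from 1 to 12 months of age. The groups used were green soybean extract at 3% of a CE-2 diet, yellow soybean extract at 3% of that diet, and the control diet, with 3 arrays each; the diet text printed for every sample speaks of extract, so controls were taken from their titles. The labels describe 12 mice per diet with 6 to a cage, name no mouse or cage for an array, and do not say whether RNA was pooled, so the spread behind the p-values is that between arrays and may be partly technical, and cage cannot be told apart from diet. The sample titles read SMP30 where the strain label reads SAMP10, and the strain label was followed.

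Each value is the authors' normalized score, a z-type scale on which the probe sets of an array had an SD between 0.577 and 0.629 units. A difference is given in these units, with a standard error that had a median of 0.0632 over all probe sets. The mean correlation of an array with the other 8 was 0.977 to 0.981 except for green soybean replicate 3, at 0.958. Astrocyte, oligodendrocyte and hippocampal neuron markers scored high in controls, with median percentiles of 94.6, 92.7 and 83.8. The percentiles are taken among the uncentred probe sets tested, those whose control mean had not been set to 0 by the authors. Of the marker lists of neighbouring or minor cell types, 6 of 8 choroid plexus, 6 of 7 leptomeningeal and 5 of 6 microglial genes were higher with green soybean than with the control diet and 0 passed the test. Of all probe sets 65.0% were higher. In the lists of hippocampal neurons, astrocytes and oligodendrocytes 2 of 7, 2 of 5 and 1 of 4 were higher, and the 1 blood marker tested was lower. Hippocampal neuron mean scores ran from 0.761 to 1.04 on green arrays, 0.950 to 0.988 on yellow arrays and 0.890 to 0.973 on control arrays. They leave out centred Camk2a, which differed by -0.209 between green soybean and control (limma adjusted p = 0.469). The oligodendrocyte mean ran from 1.05 to 1.44 on green arrays, 1.19 to 1.49 on yellow arrays and 1.18 to 1.48 on control arrays. The choroid plexus mean score ranged from -0.0737 to 0.363 on green arrays, from -0.132 to 0.160 on yellow arrays and from -0.149 to 0.143 on control arrays. The microglial mean ranged from 0.381 to 0.430 on green arrays, from 0.411 to 0.428 on yellow arrays and from 0.308 to 0.424 on control arrays. The leptomeningeal mean, over the 3 of 7 uncentred probe sets, ranged from -0.178 to 0.0255 on green arrays, from -0.125 to 0.0106 on yellow arrays and from -0.219 to -0.0923 on control arrays. Of the endothelial markers 4 of 5 were higher with green soybean, with a mean of 0.0536 to 0.310 on green arrays, 0.220 to 0.233 on yellow arrays and 0.144 to 0.238 on control arrays. The part of these cells in the values below was not tested. In whole tissue, fewer cells of a type and less RNA per cell cannot be told apart.

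The 2 Nfu1 probe sets did not show the same pattern. Probe set 10429201, the one for which Nfu1 was chosen, scored 0.602, 0.736 and 0.0169 on green arrays, 0.0548, 0.0170 and -0.0106 on yellow arrays and -0.372, -0.297 and -0.186 on control arrays. All green and all yellow arrays lay above all control arrays, and green soybean replicate 3 lay among the yellow arrays, far below the other green arrays. Probe set 10539769 scored 0.783, 0.812 and 0.873 on green arrays, 0.806, 0.901 and 0.936 on yellow arrays and 0.792, 0.929 and 0.852 on control arrays. Here the 3 diets overlapped, and green soybean replicate 3 was the highest green array.

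**Figure D1:**
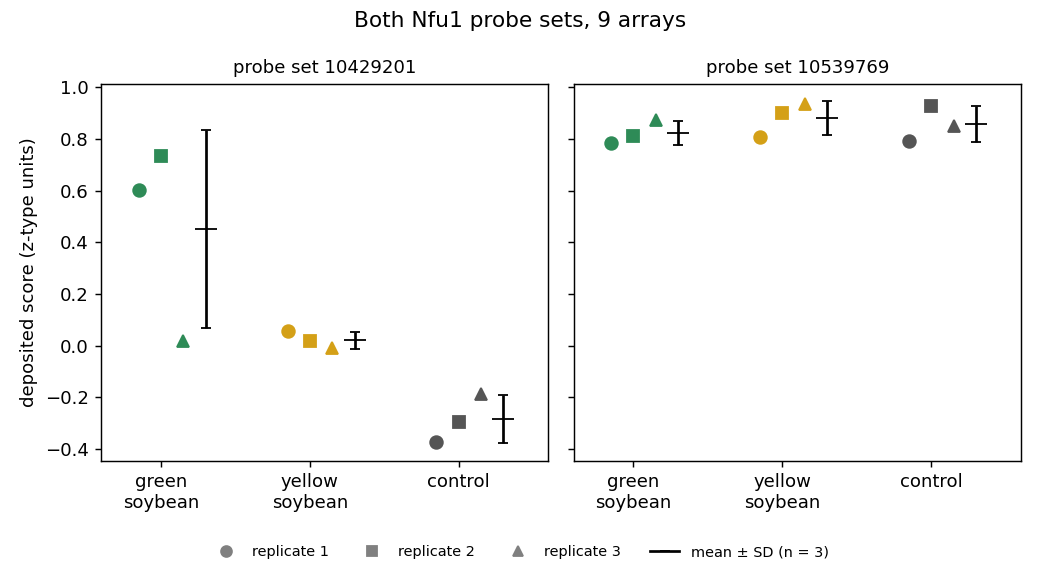
Deposited score (z-type units, vertical axis) of both Nfu1 probe sets on each array, by diet; symbols mark the replicate and the bar gives mean ± SD (n = 3). In probe set 10429201 the control arrays lie lowest, between -0.372 and -0.186, while in probe set 10539769 all 9 arrays lie between 0.783 and 0.936 with no separation by diet.

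Probe set 10429201 averaged 0.452 ± 0.382 with green soybean and -0.285 ± 0.0937 with the control diet (SD, n = 3 each), a difference of 0.737 ± 0.140 (SE) that ranked 4 by size among 21959 probe sets. This is the difference that chose the gene, so it is a description and has no test. Probe set 10539769 averaged 0.823 ± 0.0459 with green soybean and 0.858 ± 0.0689 with the control diet (SD, n = 3 each), a difference of -0.0350 ± 0.0570 (SE) with a 95% interval of -0.159 to 0.0893. Green minus yellow was 0.431 ± 0.140 for probe set 10429201 and -0.0579 ± 0.0570 for probe set 10539769 (SE), again without a test, since it uses the same green arrays. Without green soybean replicate 3 the green minus control difference was 0.954 for probe set 10429201, and the difference between green and yellow was 0.649.

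Yellow soybean was compared with the same control arrays that chose Nfu1, so its values are not independent of that choice. Probe set 10429201 averaged 0.0204 ± 0.0328 with yellow soybean and -0.285 ± 0.0937 with the control diet (SD, n = 3 each), a difference of 0.305 ± 0.140 (SE). It did not pass (limma adjusted p = 1.00), although the 3 yellow arrays lay above the 3 control arrays. That separation occurred in 6.65% of all probe sets, and the opposite one, yellow below control, in 2.65%. For probe set 10539769 the yellow minus control difference was 0.0229 ± 0.0570 (SE, limma adjusted p = 1.00).

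The 2 probe sets also differed in where their numbers place them. On this array the numbers follow the chromosomes closely: of 21553 probe sets with a single gene placed in the RefSeq annotation of GRCm38.p6, 81.9% stood between 6 genes that all lie on the same chromosome as their own gene, 3 on each side, and 2.02% stood between 6 genes that all lie on 1 other chromosome. Nfu1 lies on chromosome 6, and probe set 10539769 stood between Aak1 and Gfpt1, with 6 of 6 neighbours on chromosome 6. Probe set 10429201 stood between the microRNA gene Mir30d and Fam135b, with 0 of 6 neighbours on chromosome 6 and 6 of 6 on chromosome 15. Whether it detects Nfu1 transcripts, a related sequence elsewhere in the genome or both was not tested, because neither the sequences nor the positions of the probes were used here. The control mean of probe set 10429201 lay at percentile 22.0 and that of probe set 10539769 at percentile 83.1 of the uncentred probe sets tested. These percentiles describe the brightness of a probe set, not the amount of a transcript.

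The tested probe sets whose 9 scores, taken as differences from their own control mean, came closest to those of probe set 10429201 belonged to Rpl7a, a ribosomal protein gene (root mean square difference 0.282), Ccn4, a secreted matricellular protein gene (0.297), Zcchc13 (0.297), Fggy, a carbohydrate kinase gene (0.302) and Gm13547 (0.308). The Rpl7a probe set, too, stood among genes of another chromosome: Rpl7a lies on chromosome 2, and 6 of 6 neighbours lay on chromosome 6. The other 4 stood among genes of their own chromosome, with 5 of 6 neighbours there for Fggy and 6 of 6 for the others. The other Nfu1 probe set, at 0.519, ranked 14651 among 17823 such probe sets. Even the 5 closest did not match probe set 10429201 in size. Their green minus control differences ran from 0.269 for Zcchc13 to 0.467 for Fggy, against 0.737. Zcchc13 differed nearly as much with yellow soybean, by 0.255, and Fggy was highest on green soybean replicate 3, at 0.608.

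Among the other members, Nfs1 comes first in the route, as the cysteine desulfurase that supplies the sulfur. It scored 0.455, 0.469 and 0.320 on green arrays, 0.400, 0.525 and 0.441 on yellow arrays and 0.403, 0.343 and 0.421 on control arrays, and the diets overlapped. The green minus control difference was 0.0260 ± 0.0581 (SE, limma adjusted p = 0.912) and the yellow minus control difference 0.0661 ± 0.0581 (SE, limma adjusted p = 1.00). Its neighbours by number lay on chromosome 2, where Nfs1 lies, in 5 of 6 cases.

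Iscu encodes the scaffold on which the cluster is assembled. Probe set 10524417 scored 0.931, 1.09 and 0.969 on green arrays, 1.04, 0.993 and 1.13 on yellow arrays and 1.04, 0.833 and 1.05 on control arrays. Probe set 10461108 scored 1.29, 1.26 and 0.957 on green arrays, 1.17, 1.16 and 1.29 on yellow arrays and 1.21, 1.21 and 1.22 on control arrays. In probe set 10461108 the lowest of all arrays was green soybean replicate 3, and the diets overlapped in both. The green minus control difference was 0.0213 ± 0.0709 for probe set 10524417 and -0.0445 ± 0.0801 for probe set 10461108 (SE, limma adjusted p = 0.945 and 0.887). Iscu lies on chromosome 5. Probe set 10524417 had 5 of 6 neighbours on that chromosome, while probe set 10461108 had 0 of 6 there and 6 of 6 on chromosome 19.

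Isca1 and Isca2 encode partner proteins that, in human cells, act after the scaffold to form the larger clusters. Isca1 probe set 10403934 scored 1.56, 1.68 and 0.697 on green arrays, 1.38, 1.46 and 1.63 on yellow arrays and 1.52, 1.54 and 1.70 on control arrays. Green soybean replicate 3 stood alone at the low end and the other 8 arrays overlapped. The green minus control difference was -0.278 ± 0.193 (SE, limma adjusted p = 0.664), and without green soybean replicate 3 it was 0.0288. Isca1 probe set 10409799 scored 0.110, 0.0193 and 0.0664 on green arrays, -0.158, 0.0405 and 0.0449 on yellow arrays and -0.0517, -0.0321 and 0.0838 on control arrays. This probe set was one of those whose control mean the authors had set to 0, so its score is not a brightness. Its green minus control difference was 0.0654 ± 0.0657 (SE, limma adjusted p = 0.781). Both Isca1 probe sets had 6 of 6 neighbours on chromosome 13, where Isca1 lies. The nearest neighbours of probe set 10409799, Spata31d1d and Tut7, flank Isca1, whereas those of probe set 10403934, Zkscan4 and H2bc14, lie 38.3 and 38 Mb away from it. Isca2 scored 0.601, 0.645 and 0.502 on green arrays, 0.621, 0.653 and 0.549 on yellow arrays and 0.518, 0.541 and 0.719 on control arrays, with a green minus control difference of -0.00998 ± 0.0651 (SE, limma adjusted p = 0.971).

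**Figure D2:**
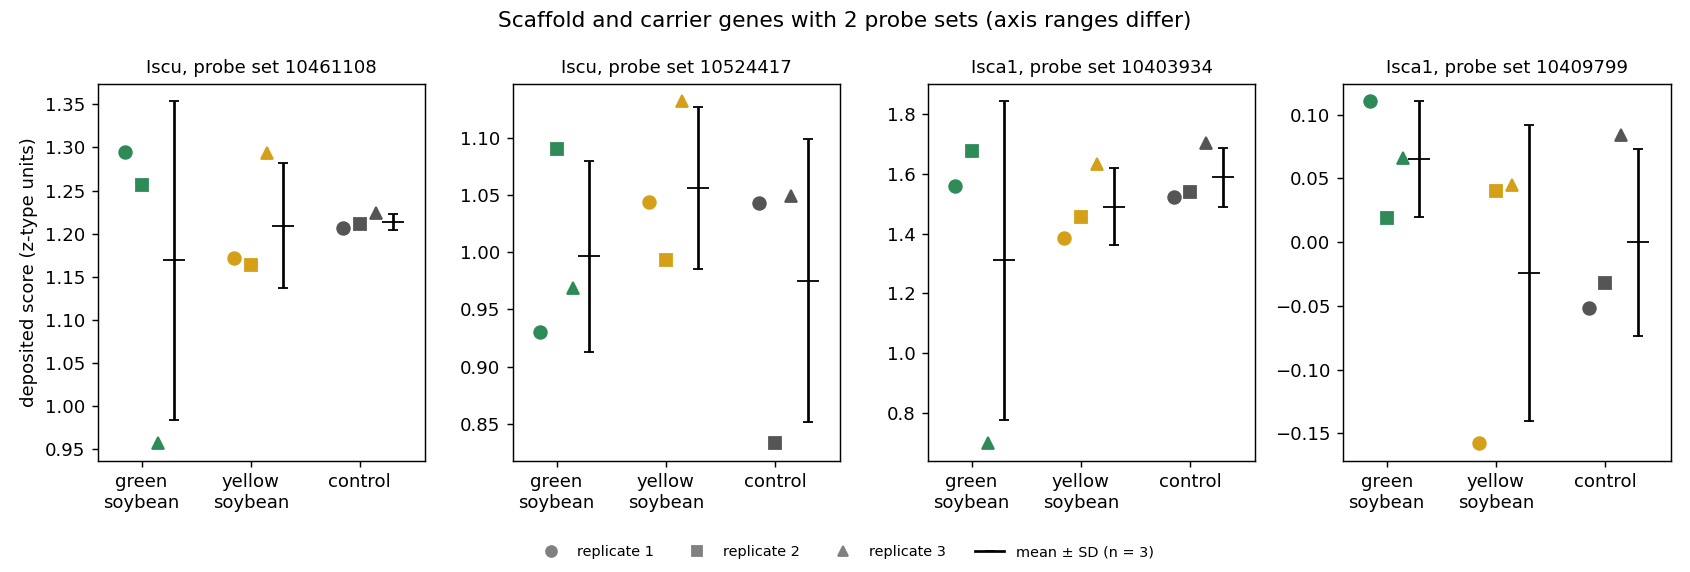
Deposited score (z-type units, vertical axes with different ranges) of both Iscu and both Isca1 probe sets on each array, by diet; symbols mark the replicate and bars give mean ± SD (n = 3). Green soybean replicate 3 is the lowest array for Iscu probe set 10461108, at 0.957, and for Isca1 probe set 10403934, at 0.697, and lies inside the range of the other arrays in the remaining panels.

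The 3 genes with 2 probe sets thus each had one numbered near its own locus and one numbered elsewhere. Elsewhere was another chromosome for Nfu1 and Iscu, and a distant part of the same chromosome for Isca1. In the probe sets numbered elsewhere, green soybean replicate 3 lay below the mean of green replicates 1 and 2, by -0.652 for Nfu1, -0.318 for Iscu and -0.921 for Isca1. In those numbered near the gene the same difference was 0.0756 for Nfu1, -0.0420 for Iscu and 0.00146 for Isca1. In the single probe sets of the other 5 genes green soybean replicate 3 also lay lower, by -0.188 for Glrx5, -0.142 for Nfs1, -0.125 for Hscb, -0.121 for Isca2 and -0.0423 for Bola3.

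Hscb encodes the co-chaperone that brings the scaffold to the mitochondrial heat shock protein for release of the cluster. It scored -0.281, -0.0660 and -0.299 on green arrays, -0.154, -0.154 and -0.321 on yellow arrays and -0.199, -0.184 and -0.204 on control arrays. The green minus control difference was -0.0199 ± 0.0701 (SE, limma adjusted p = 0.948), and both extracts had a wider spread than the controls. Glrx5, the glutaredoxin that passes on the released cluster, scored 0.582, 0.676 and 0.441 on green arrays, 0.564, 0.594 and 0.618 on yellow arrays and 0.572, 0.456 and 0.574 on control arrays. Its green minus control difference was 0.0319 ± 0.0644 (SE, limma adjusted p = 0.901), and its diets overlapped. The single probe sets of Hscb, Glrx5, Isca2 and Bola3 had 6 of 6 neighbours on the chromosome of their gene.

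Bola3 encodes a small protein that in humans works beside NFU1 in the supply of clusters to lipoyl synthase. It scored 0.621, 0.533 and 0.535 on green arrays, 0.448, 0.453 and 0.535 on yellow arrays and 0.476, 0.412 and 0.544 on control arrays. The highest array was green, but yellow and control arrays reached into the green range. The green minus control difference was 0.0857 ± 0.0549 (SE, limma adjusted p = 0.634), with a 95% interval of -0.0340 to 0.205, and the green minus yellow difference was 0.0843 ± 0.0549 (SE, limma adjusted p = 0.776). With each array left out in turn the green minus control difference of Bola3 ran from 0.0529 to 0.119.

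**Figure D3:**
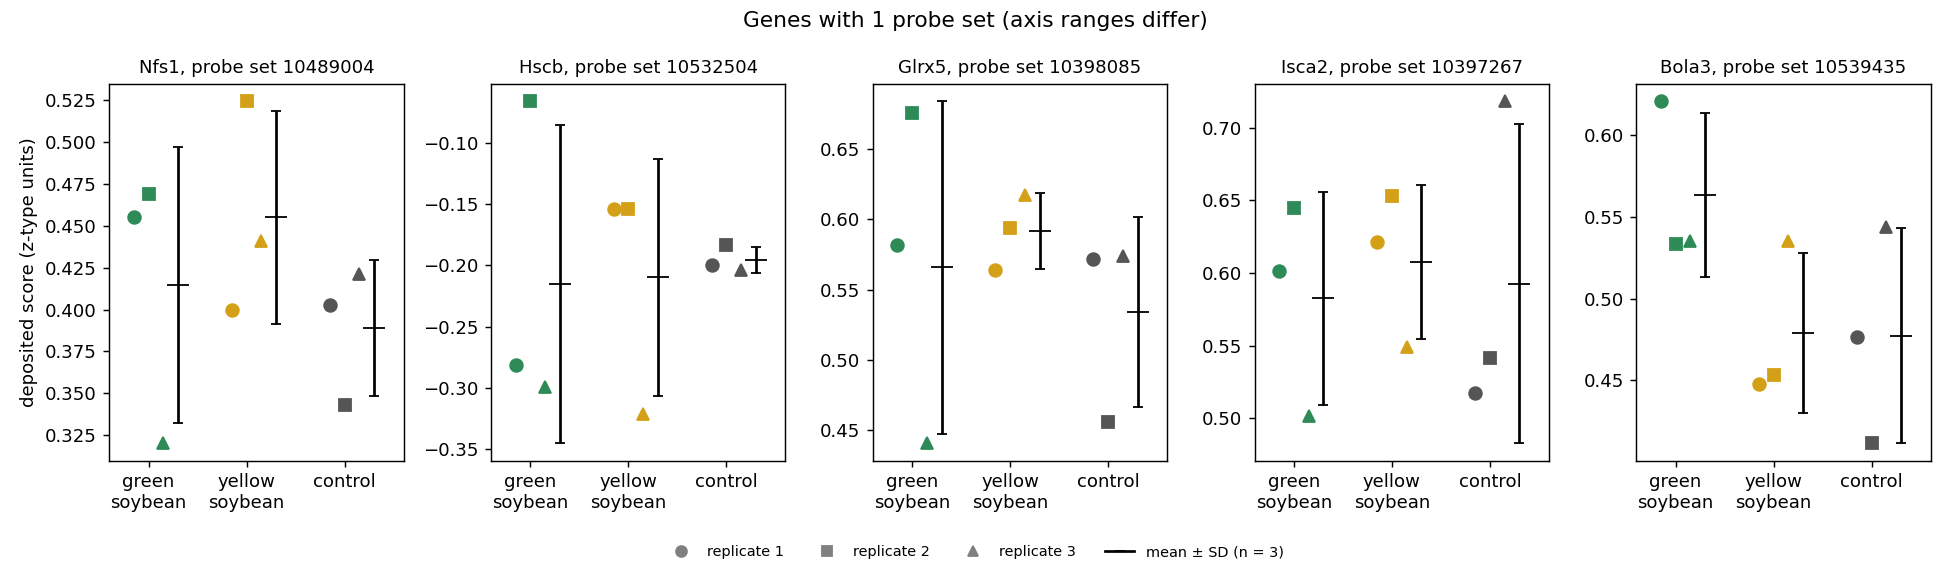
Deposited score (z-type units, vertical axes with different ranges) of Nfs1, Hscb, Glrx5, Isca2 and Bola3 on each array, by diet; symbols mark the replicate and bars give mean ± SD (n = 3). The diets overlap in each panel; the green arrays of Bola3 lie at 0.533 to 0.621 and its control arrays at 0.412 to 0.544.

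Over the 11 member probe sets, 6 were higher and 5 lower with green soybean than with the control diet, against 65.0% higher among all. The 6 include the chosen Nfu1 probe set, whose direction was fixed by the choice. The median difference was 0.0213, against a median of 0.0296 over all probe sets tested. The chosen Nfu1 probe set was the only 1 of 11 with all green above all control arrays, a separation found in 13.2% of all, and nothing is read from it here. Of the 9 probe sets of the other genes limma called 0, as it called 0% of all probe sets, and 0 had an unadjusted p below 0.05, against 9.72% of all. Their limma adjusted p ran from 0.634 to 0.971.

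With yellow soybean 7 of the 11 were higher and 4 lower than with the control diet, against 60.4% higher among all probe sets. The median difference was 0.0153, against 0.0140 over all. Limma called 0 of the 11, as it called 0% of all probe sets, and the adjusted p of each was 1.00. Of the 9 probe sets of the other genes 0 had an unadjusted p below 0.05, against 3.04% of all. Nfu1 probe set 10429201 had one, but it was chosen through the same control arrays, so nothing is read from that.

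Between green and yellow soybean 3 of the 11 were higher and 8 lower with green soybean, against 58.0% higher among all. The median was -0.0257, against 0.0147 over all. Green and yellow arrays overlapped in all 11, whereas green lay above yellow in 7.63% and below it in 2.92% of all probe sets. Limma called 0 of the 9 probe sets of the other genes, as it called 0% of all, with adjusted p from 0.776 to 0.995, and 0 had an unadjusted p below 0.05, against 7.10% of all.

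The counts of direction moved with green soybean replicate 3 and with the scaling, as did those over all probe sets. Each count for green soybean includes the chosen Nfu1 probe set, whose direction against control was fixed by the choice. Without that array 10 of the 11 were higher and 1 lower with green soybean than with the control diet, against 70.5% higher among all probe sets, and 9 were higher and 2 lower than with yellow soybean, against 63.3% higher. Once array medians were aligned 3 were higher and 8 lower with green soybean than with the control diet, against 39.4% higher among all, and once arrays were quantile-normalized 6 were higher and 5 lower, against 50.8% higher. For yellow soybean the count was 4 higher and 7 lower with aligned medians, against 39.0% higher among all, and 5 higher and 6 lower with quantile-normalized arrays, against 49.5% higher.

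**Figure D4:**
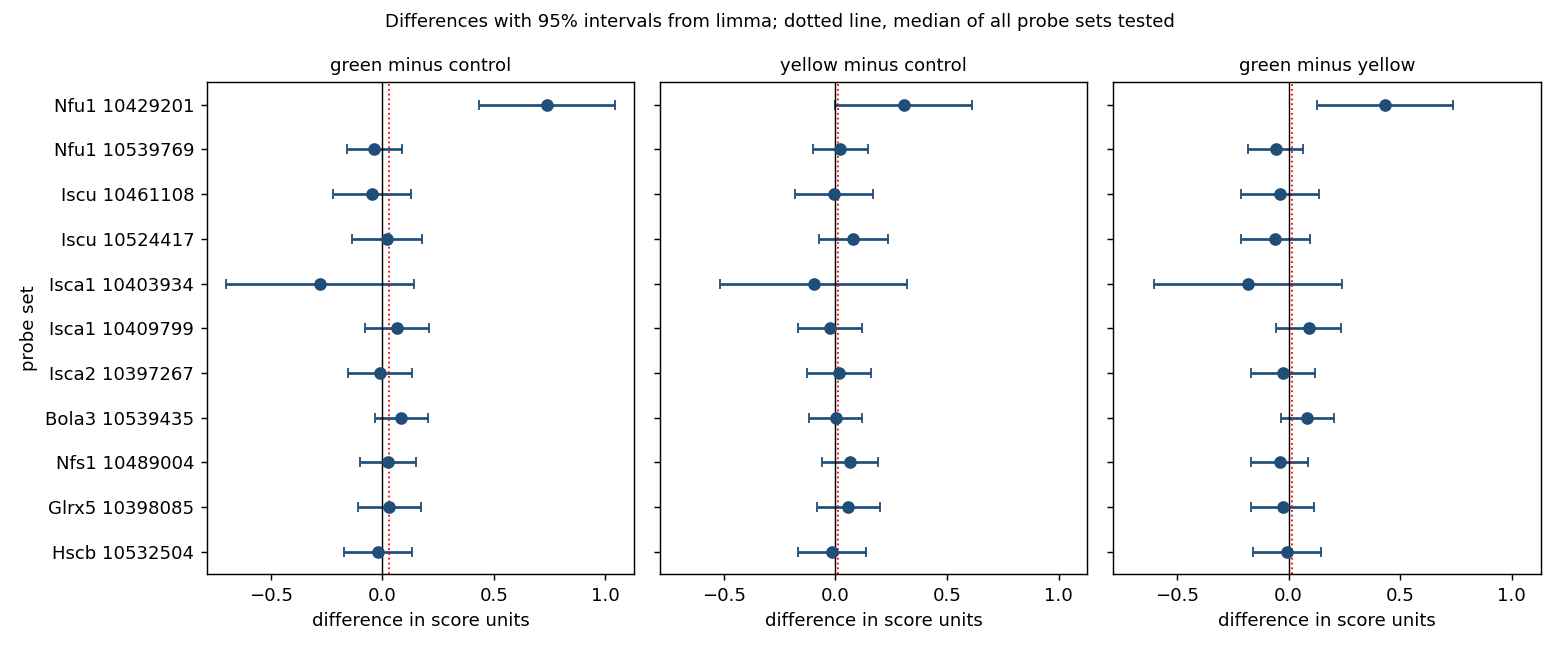
Differences in score units (horizontal axes) of the 11 probe sets for green minus control, yellow minus control and green minus yellow, with 95% intervals from limma; the dotted line is the median over all probe sets tested. Nfu1 probe set 10429201 lies at 0.737, 0.305 and 0.431. It was chosen for the first of these values and the others share its arrays, so nothing is read from its intervals. The intervals of the other 10 probe sets include 0 in all 3 panels.

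In the authors' deposited table, whose p-values come from a test not stated there, the p was 0.148 for Nfu1 probe set 10429201 and 0.901 for probe set 10539769. The lowest p of a member in the authors' deposited table was 0.00417, for Isca1 probe set 10409799, and the next 0.0507, for Bola3. That Isca1 probe set was among the 1345 of 21959 centred on controls. Their deposited p was at most 0.00497, and that of the other tested probe sets at least 0.00501. Its unadjusted limma p for green versus control was 0.340. Isca1 probe set 10403934 had no deposited p.

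The other genes of the pathway were taken from 5 lists, with 54 of 62 genes on 55 tested probe sets. With green soybean 36 of the 55, or 65.5%, were higher and 19 lower than with the control diet, against 65.0% higher among all probe sets, and the median difference was 0.0330 against 0.0296. Limma called 0 of the 55, as it called 0% of all, with 1 at an unadjusted p below 0.05, against 9.72% of all. With yellow soybean 36 were also higher and 19 lower, against 60.4% higher among all, with a median of 0.0146 against 0.0140. Limma called 0, as it called 0% of all, and 0 had an unadjusted p below 0.05, against 3.04% of all.

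In the list of other mitochondrial assembly genes, 10 of 10 probe sets were higher with green soybean than with the control diet and 0 passed, with a median difference of 0.0741. Of the 10, 7 were higher once array medians were aligned, 8 once arrays were quantile-normalized and 9 without green soybean replicate 3. The shares higher among all probe sets in these settings were 39.4%, 50.8% and 70.5%, and 65.0% in the reported fit. Iba57, a partner of the Isca proteins, differed by 0.103 and 0.0972 in its 2 probe sets. Lyrm4, the small subunit that stabilises the desulfurase, differed by 0.0938 ± 0.0538 (SE, limma adjusted p = 0.597). Hspa9, the mitochondrial heat shock protein that works with Hscb, averaged 1.10 ± 0.0149 with green soybean and 1.04 ± 0.0401 with the control diet (SD, n = 3 each). All its green arrays lay above its control arrays, as in 13.2% of all probe sets, and its difference of 0.0610 did not pass (limma adjusted p = 0.747). The smallest differences were 0.0107 for Bola1 and 0.0134 for Ndufab1, the mitochondrial acyl carrier protein. With yellow soybean 9 of the 10 were higher than with the control diet, against 60.4% among all, with a median of 0.0553 and 0 past the test.

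The cytosolic assembly list holds genes whose products build clusters for cytosolic and nuclear proteins. Of its 10 probe sets 9 were higher with green soybean than with the control diet, against 65.0% higher among all, and 0 passed. The count was 7 with aligned medians, 8 with quantile-normalized arrays and 7 without green soybean replicate 3. Among all probe sets 39.4%, 50.8% and 70.5% were higher in these settings. Ciapin1, part of the electron transfer chain of this route, differed by 0.0988, and Ciao3, which links early and late factors, by 0.0955. Ciao1, a subunit of the targeting complex, differed by -0.0309. Glrx3, a cytosolic glutaredoxin, differed by 0.0101, a value that was -0.114 without green soybean replicate 3. The median was 0.0657 with green soybean, and 0.0423 with yellow soybean, where 8 of 10 were higher, against 60.4% among all.

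Lipoyl synthesis and the enzymes that carry lipoyl groups are the recipients most tied to NFU1. Of 14 probe sets 5 were higher and 9 lower with green soybean than with the control diet, against 65.0% higher among all. The median was -0.0205 and 0 passed the test. Without green soybean replicate 3 the count was 10 higher and 4 lower, against 70.5% higher among all. Lias, lipoyl synthase itself, averaged 0.393 ± 0.0377 with green soybean and 0.334 ± 0.0254 with the control diet (SD, n = 3 each; difference 0.0591, limma adjusted p = 0.716). Gcsh, the lipoyl protein of glycine cleavage, averaged -0.494 ± 0.0526 with green soybean and -0.280 ± 0.255 with the control diet (SD, n = 3 each). Its green arrays all lay below its control arrays, which happened in 2.67% of all probe sets, and its difference of -0.214 ± 0.127 (SE) did not pass (limma adjusted p = 0.613). Its control arrays were -0.443, -0.409 and 0.0140, and without control replicate 3 the difference was -0.0675. Bckdhb, a subunit of the branched-chain 2-oxoacid dehydrogenase, differed by 0.0990, Lipt2, the first enzyme of lipoyl synthesis, by 0.0835, and Pdhx, a structural protein of pyruvate dehydrogenase, by -0.0937, a value that was 0.0704 without green soybean replicate 3. With yellow soybean 9 of the 14 were higher and 5 lower than with the control diet, with a median of 0.00493. The count turned to 2 higher and 12 lower with aligned medians and to 3 higher and 11 lower with quantile-normalized arrays. Among all probe sets 60.4% were higher with yellow soybean in the reported fit, 39.0% with aligned medians and 49.5% with quantile-normalized arrays.

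Of the 10 probe sets for mitochondrial iron-sulfur proteins, 4 were higher and 6 lower with green soybean than with the control diet, and 0 passed. Sdhb, the iron-sulfur subunit of succinate dehydrogenase, averaged 1.18 ± 0.0714 with green soybean and 1.06 ± 0.137 with the control diet (SD, n = 3 each; difference 0.120, limma adjusted p = 0.634). Ndufv2, an iron-sulfur subunit of complex I, averaged 1.43 ± 0.0376 with green soybean, 1.43 ± 0.0438 with yellow soybean and 1.53 ± 0.0526 with the control diet (SD, n = 3 each). The control arrays lay above all arrays of both extracts, which share those controls; green lay below control in 2.67% and yellow below control in 2.65% of all probe sets. The difference was -0.103 for each extract and did not pass (limma adjusted p = 0.545 for green and 1.00 for yellow soybean). Uqcrfs1, the Rieske protein of complex III, differed by 0.0682 and Ndufs7, another complex I subunit, by -0.0776 between green soybean and control. Without green soybean replicate 3 these differences were 0.0193 for Uqcrfs1 and -0.0167 for Ndufs7, and that of Sdhb was 0.0502 without control replicate 1. With yellow soybean 5 of the 10 were higher and 5 lower than with the control diet, against 60.4% higher among all, with a median of -0.00158. That count was 1 higher and 9 lower with aligned medians, against 39.0% higher among all. It was 4 higher and 6 lower with quantile-normalized arrays, against 49.5% higher.

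Outside mitochondria, 8 of 11 probe sets for iron-sulfur proteins were higher with green soybean than with the control diet and 0 passed, a count that was 5 with aligned medians and 6 with quantile-normalized arrays. Ddx11, a DNA helicase, averaged -0.220 ± 0.0614 with green soybean and -0.358 ± 0.0499 with the control diet (SD, n = 3 each), a difference of 0.138 ± 0.0554 (SE) that did not pass (limma adjusted p = 0.482). Pold1, the catalytic subunit of DNA polymerase delta, differed by 0.0778, Elp3, a tRNA-modifying enzyme, by -0.0724, and Ppat, the first enzyme of purine synthesis, by -0.0233. The difference of Elp3 was -0.0140 without green soybean replicate 3. With yellow soybean 5 of the 11 were higher and 6 lower than with the control diet, against 60.4% higher among all, with a median of -0.00966. That count was 3 higher and 8 lower with aligned medians and 4 higher and 7 lower with quantile-normalized arrays.

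**Figure D5:**
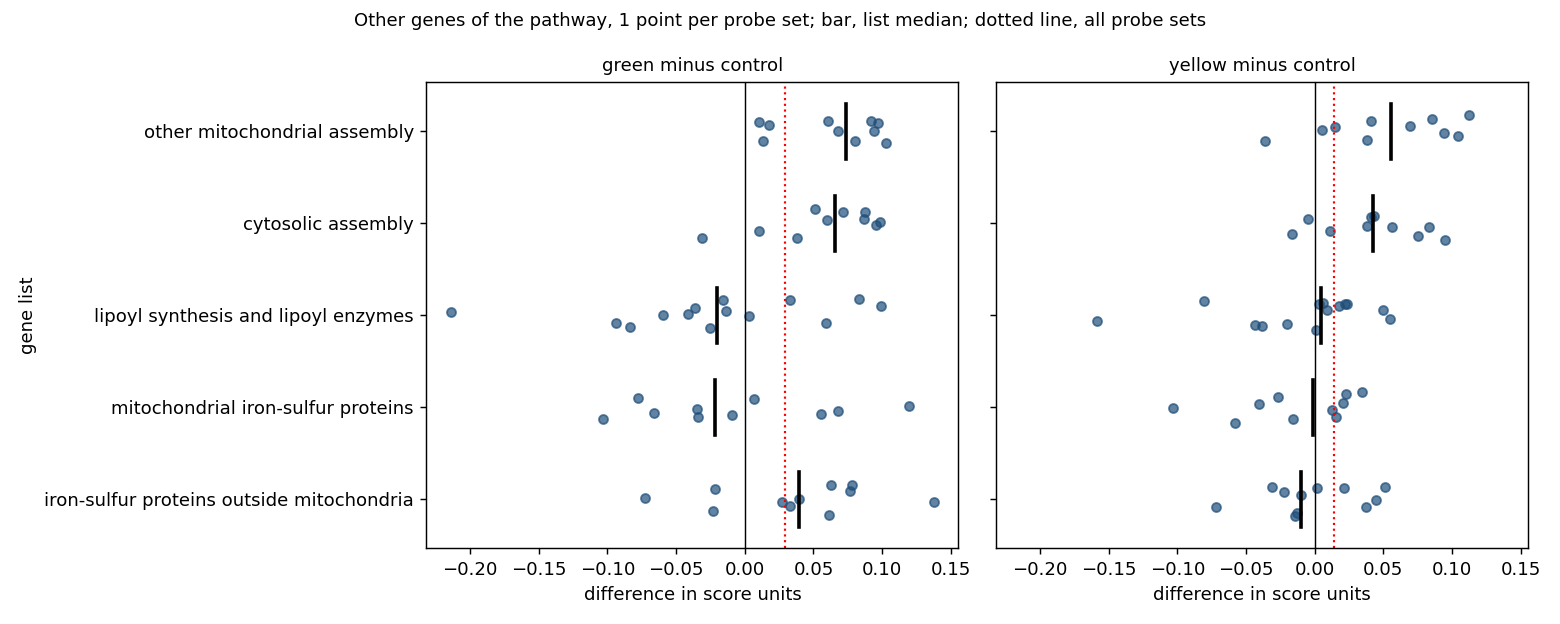
Differences in score units (horizontal axes) from control for green and yellow soybean, 1 point for each probe set of the 5 pathway lists; the black bar is the list median and the dotted line the median over all probe sets tested. With green soybean the medians of other mitochondrial and cytosolic assembly genes lie at 0.0741 and 0.0657, against 0.0296 over all probe sets, and that of the lipoyl list at -0.0205.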

How the data were processed

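Hippocampal total RNA was labelled as biotinylated cRNA and hybridised to 1-colour Affymetrix arrays, per the labels' protocols. For each array the authors deposited a normalized score per probe set; SuperNORM is named in the labels as the normalization, and the base of its logarithm is not given in the sources used here. The authors also deposited 1 p-value per probe set. The 18 value columns of other tables match no label and were not used. Of 34760 probe sets, 6573 of control type, with numbers below those of the annotated ones, and 6228 with an exact 0 on any array, read as no value, were left out, and 21959 were tested. Genes were named by the platform annotation. For 1345 tested probe sets the control mean was 0 within 1e-06.

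Scores were fitted with limma 3.58.1 in R 4.3.3, with 1 model over 9 arrays, no covariates and no intensity trend, 2-sided, with Benjamini-Hochberg adjustment over all probe sets tested and calls at an adjusted p below 0.05. On simulated data of these 21959 probe sets, 18% of shifts of 0.2 units and 88% of shifts of 0.5 units between green soybean and control were recovered. In that simulation 8 unshifted probe sets were called, and no shift was simulated for yellow soybean. It planted 50 shifts each of 0.2, 0.5, 1 and 2 units in independent normal noise with no outlying array. In the data 13 probe sets differed by more than 0.5 units between green soybean and control. The adjustment depends on how many shifts there are, so these rates may exceed those of the reported fit. The members, lists and tests were chosen with earlier results of these data known. Named were all members, Lias, Sdhb, Lyrm4, Hspa9 and Iba57, and the 2 highest and 2 lowest green minus control differences of each list; some listed genes are not reported here. For likeness, the 5 nearest single-symbol probe sets by root mean square difference were named. Alternatives were a replicate block, the 6 arrays compared alone, aligned medians, quantile normalization, brighter probe sets only, array weights, an intensity trend, centred probe sets left out, and each array left out in turn. The number of arrays limits the precision.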

Additional observations from a re-analysis of the deposited data

How the results depend on the processing

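No probe set was called in the reported fit. With array weights 1 probe set was called for green versus control, and without green soybean replicate 3 there was 1 for green versus control and 1 for green versus yellow; each was Nfu1 probe set 10429201, which was chosen for this difference. Leaving out each array gave 0 to 1 called for those comparisons, over all probe sets and over the members, and 0 for yellow versus control. The replicate block called 0 in each comparison. Same-numbered arrays had residual correlations of -0.0817 to 0.165 and 3 of 9 arrays correlated best with their own number, so the numbers were not taken to pair the samples. Over the single probe sets, 498 of the 549 alternative values kept their sign and 51 changed it. Many of the 549 could not change, because some settings return the same difference of means. These were the replicate block, the compared arrays alone, the intensity trend, brighter probe sets only and centred probe sets left out. Leaving out an array of the diet not compared also kept the difference. The 498 therefore overstate how stable the signs were. The cause of the 51 changes of sign was not tested, and none of the values that changed sign was called.

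With array medians aligned, green versus control became -0.0288 for Iscu 10524417, -0.0241 for Nfs1 and -0.0182 for Glrx5, and yellow versus control -0.00600 for Nfu1 10539769, -0.0137 for Isca2 and -0.0276 for Bola3. Quantile normalization gave -0.000721 for Isca2 and -0.0131 for Bola3 in yellow versus control. Array weights gave 0.0222 for Iscu 10461108, 0.0354 for Isca2 and 0.0268 for Hscb in green versus control. In green versus yellow they gave 0.0328 for Iscu 10461108, 0.0441 for Isca1 10403934, 0.000403 for Isca2, 0.0268 for Glrx5 and 0.0343 for Hscb.

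With each array left out, green versus control ranged from -0.0230 to 0.0946 for Glrx5, -0.0946 to 0.0219 for Hscb, -0.461 to 0.0288 for Isca1 10403934, -0.0473 to 0.0530 for Isca2, -0.107 to 0.0616 for Iscu 10461108, -0.0499 to 0.0584 for Iscu 10524417 and -0.00113 to 0.0734 for Nfs1. It was 0.595 to 0.954 for Nfu1 10429201, -0.0679 to 0.000830 for Nfu1 10539769, 0.0529 to 0.119 for Bola3 and 0.0395 to 0.107 for Isca1 10409799. Yellow versus control ranged from -0.0314 to 0.0346 for Bola3, -0.0422 to 0.0412 for Hscb, -0.0587 to 0.0427 for Isca1 10409799, -0.0221 to 0.0782 for Isca2, -0.0462 to 0.0185 for Iscu 10461108 and -0.00990 to 0.0604 for Nfu1 10539769. It was 0.0186 to 0.0777 for Glrx5, -0.168 to -0.0404 for Isca1 10403934, 0.00981 to 0.118 for Iscu 10524417, 0.0313 to 0.0937 for Nfs1 and 0.262 to 0.355 for Nfu1 10429201. Green versus yellow ranged from -0.0807 to 0.0370 for Glrx5, -0.0803 to 0.0363 for Hscb, -0.363 to 0.127 for Isca1 10403934, -0.0562 to 0.0151 for Isca2, -0.103 to 0.0660 for Iscu 10461108 and -0.0677 to 0.00729 for Nfs1. It was 0.0554 to 0.113 for Bola3, 0.0227 to 0.124 for Isca1 10409799, -0.107 to -0.0216 for Iscu 10524417, 0.289 to 0.649 for Nfu1 10429201 and -0.0954 to -0.0306 for Nfu1 10539769.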

Other observations

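Among the tested probe sets, 400 stood by number between 6 genes of 1 other chromosome than their own gene's, and 14557 between 6 genes of the same chromosome. The definition was made after the 2 Nfu1 probe sets had been seen. It goes by chromosome only, so Isca1 probe set 10403934 counts among the 14557, although its nearest neighbours lie 38.3 and 38 Mb from Isca1. Green minus control had a median of 0.00723 in the 400, with 52.3% higher, and of 0.0293 in the 14557, with 65.7% higher. An unadjusted limma p below 0.05 was found for 8.75% of the 400 and 8.62% of the 14557, and all 3 green arrays lay above all 3 control arrays in 7.5% and 13.2%.

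For 237 genes both kinds of probe set were tested, and the difference from control with green soybean had the same sign in both for 131 of them. The median size of the difference was 0.0608 in the probe sets among genes of another chromosome and 0.0542 in those among genes of their own. Nfu1, with 0.772 between the differences of its 2 probe sets, had the widest gap of the 237, and it had been chosen for one of these values.

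Green soybean replicate 3 lay more than 0.3 units below the mean of the other green arrays in 10.8% of the 400 and 3.77% of the 14557. The share of the 400 is 43 probe sets, and it counts Nfu1 probe set 10429201 and Iscu probe set 10461108, at -0.652 and -0.318. For the other 8 arrays, measured against their own diet in the same way, the share ran from 1.5% to 4.5% of the 400 and from 0.158% to 1.11% of the 14557. The 400 were also brighter, with a median control percentile of 77.1 against 52.4 in the 14557. Green soybean replicate 3 had the lowest SD over probe sets of the 9 arrays, at 0.577. The part of brightness and of this narrower scale in these shares was not tested.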
